A study of Mus musculus with 4 samples.

Results

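Interferon-stimulated genes are the genes that cells switch on when interferon reaches them. The set described here was chosen by name and holds 34 genes, of the 32285 genes listed in the count matrices. Of these 34 members, 32 had a row in the matrices, and Mx1 and Mx2 are not analysed here. The members were followed in 4 single-cell RNA libraries of mouse digit tissue at the middle phalanx (P2), from FVB/NJ wild-type mice 8 weeks old. The labels describe each library as a pool of male and female mice, which the levels of sex-linked genes below went against. The unamputated library came from homeostatic digits, and the other libraries came from fibrosing digits 12, 17 and 28 days post-amputation (dpa) at a level that does not regenerate. Before capture, the tissue went through enzymes (trypsin, then collagenase I), lysis of red cells and a sort for live cells. With 1 library per group, no difference below has a replicate check, no p-value is given, and intervals cover counting error only, while UMIs of 1 cell are not independent of each other. Each dpa library was compared with the same unamputated library, so the comparisons share their control.

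As background, type I interferons bind a receptor shared by almost all cells, and the signal reaches STAT2 and IRF9, which act in a complex at the interferon-stimulated response element in promoters. Interferon gamma uses a receptor of its own and acts through a different element, the gamma-activated site, and Irf1 is a classic target of that route. The proteins made from these genes bind viral RNA, tag proteins with ISG15, restrict viral entry or release, or amplify the signal itself, and some of the genes have a steady level in healthy endothelium and myeloid cells. A subset of 20 members that are strongly induced by type I interferon, 18 of them with a row, is called the core below: Irf7, Isg15, Usp18, Ifit1, Ifit2, Ifit3, Ifit3b, Oasl1, Oasl2, Oas1a, Oas2, Oas3, Zbp1, Rtp4, Rsad2, Cmpk2, Ifi44 and Xaf1. The members and lists were chosen with earlier results of these data known, and other induced members, such as Ifitm3 and Ifi27l2a, lie outside the core.

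RefSeq promoter windows (GRCm38.p6, 250 bases before to 50 after the start of a gene) were found for 24 of the 34 members. The response element was searched as a pair of GAAA letters with any 2 bases between them, on both strands. It was present in 13 of these 24 members (54.2%) and in 3.99% of all 27025 genes with a window. A tandem of 3 such GAAA letters, which contains the shorter form, was present in Bst2, Gbp3, Isg15 and Oas1a and in 0.133% of all genes. The gamma-activated site letters, TTCNNNGAA, were present in 6 of the 24 members (Bst2, Ifi35, Ifit2, Ifitm3, Irf1 and Oas1a) and in 9.55% of all genes. A match describes the letters in the window and is not a measured binding site. The 150 bases before the start are shown 5′ to 3′ on the strand of the gene, for 3 members that carry the response element (Isg15 and Bst2 in tandem, Ifit1 as a pair of separate matches on the other strand) and for Irf1, which carries only the gamma-activated site letters and whose levels took another course. Capitals mark the response element in Isg15, Ifit1 and Bst2 and the gamma-activated site letters in Irf1; Bst2 also holds gamma-activated site letters, which overlap its response element and are not marked on their own.
Isg15 (chr4:156200819-156200968, minus strand): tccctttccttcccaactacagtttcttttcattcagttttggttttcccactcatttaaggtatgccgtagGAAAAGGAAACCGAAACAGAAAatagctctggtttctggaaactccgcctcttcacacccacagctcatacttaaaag
Ifit1 (chr19:34640739-34640888, plus strand): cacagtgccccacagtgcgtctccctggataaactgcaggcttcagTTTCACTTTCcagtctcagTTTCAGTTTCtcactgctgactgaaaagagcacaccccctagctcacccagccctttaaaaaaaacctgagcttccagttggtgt
Bst2 (chr8:71537473-71537622, minus strand): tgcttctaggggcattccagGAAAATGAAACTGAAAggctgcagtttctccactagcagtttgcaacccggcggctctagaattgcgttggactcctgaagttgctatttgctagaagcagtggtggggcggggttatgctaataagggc
Irf1 (chr11:53769864-53770013, plus strand): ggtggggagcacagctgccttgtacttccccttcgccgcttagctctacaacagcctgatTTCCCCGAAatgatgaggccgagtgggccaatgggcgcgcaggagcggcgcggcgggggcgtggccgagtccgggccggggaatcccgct
The Isg15 matches ended 57 bases before the start and the Ifit1 matches 76 bases before it. The Irf1 match ended 82 bases before its start. Several members lie side by side in the genome (GENCODE M21, GRCm38): Ifit2, Ifit3, Ifit3b and Ifit1 run from 34550694 to 34650009 on chromosome 19, and Oas2, Oas3 and Oas1a from 120730333 to 120907521 on chromosome 5. Ifit3 and Ifit3b are near-identical copies and Oas1a has close relatives, so reads may be split among such copies and their levels are uncertain.

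After filters on cells and doublets, 35087 cells remained: 10420, 6453, 7962 and 10252 in the unamputated, 12, 17 and 28 dpa libraries, with a median of 11646.5, 9500, 8552.5 and 6691 UMIs (unique transcript molecules) per cell. The libraries held 92313847 to 197140774 UMIs. The 12 dpa library stood apart: Xist, which is transcribed in female cells, was at 456 CPM there (UMIs of a gene per 1000000 UMIs of the cells summed, the unit of the levels below) and at 0.0625 to 0.165 CPM in the other libraries, while 4 Y-linked genes summed to 0.231 CPM there and to 244 to 351 CPM in the others, against the labels of pooled sexes. Each 12 dpa comparison therefore also sets a female pattern of these genes against a male one in the unamputated library. Day and sex cannot be told apart in those ratios. The 17 and 28 dpa comparisons use the 12 dpa library through the minimum level for calling a gene and, where class shares are held at their mean, through those shares. Pairs of libraries shared 19 to 87 cell barcodes. Cells were clustered without the members, and clusters were named from fixed markers.

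In the whole libraries the sum of the core members was highest at 12 dpa and lowest at 28 dpa. The sum in the unamputated, 12, 17 and 28 dpa libraries was 86.8 CPM (95% Poisson interval 85.3 to 88.3), 102 CPM (99.6 to 104), 49.1 CPM (47.6 to 50.7) and 43.3 CPM (41.9 to 44.8). None of these intervals overlapped. The sum of all 32 members had another order, with 943, 1093, 1096 and 1044 CPM. In bulk sums of this kind, fewer cells that express a gene and less RNA per cell cannot be told apart, so levels within cell classes and per cell follow. Over the 11569 genes whose mean over the libraries reached 5 CPM, the median log2 ratio to the unamputated library was -0.21, -0.10 and -0.16 at 12, 17 and 28 dpa, a shift to be kept in mind for the ratios below.

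A member was called different when its CPM ratio, with 1 CPM added to both levels, was at least 2-fold either way and its mean was at least 5 CPM. By that rule 16 of the 32 members could be judged in the whole libraries, and none was called at 12 or 17 dpa. Rtp4 alone was called lower at 28 dpa, where 5.71% of all genes were called lower, and this call was lost when ratios were centred on the median of all genes, with 5 CPM added to both levels, at a minimum of 20 CPM, with all barcodes, and when the 12 dpa library, where Rtp4 was highest, was left out of the minimum. With a minimum of 1 CPM, 4 of 28 members were called lower at 17 dpa and 7 at 28 dpa, against 1.88% and 6.23% of all genes at that minimum, and none at 12 dpa (2.97%). None was called higher (0.688%, 1.08% and 1.65% of all genes at 12, 17 and 28 dpa). At the minimum of 5 CPM, the called share of all genes in the other comparisons was 2.6% lower and 0.683% higher at 12 dpa, 1.84% lower and 1.07% higher at 17 dpa, and 1.69% higher at 28 dpa. The median log2 ratio of the 16 members was -0.04, -0.21 and -0.53 at 12, 17 and 28 dpa. The other 16 members lay under the minimum and are given by their levels.

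**Figure D1:**
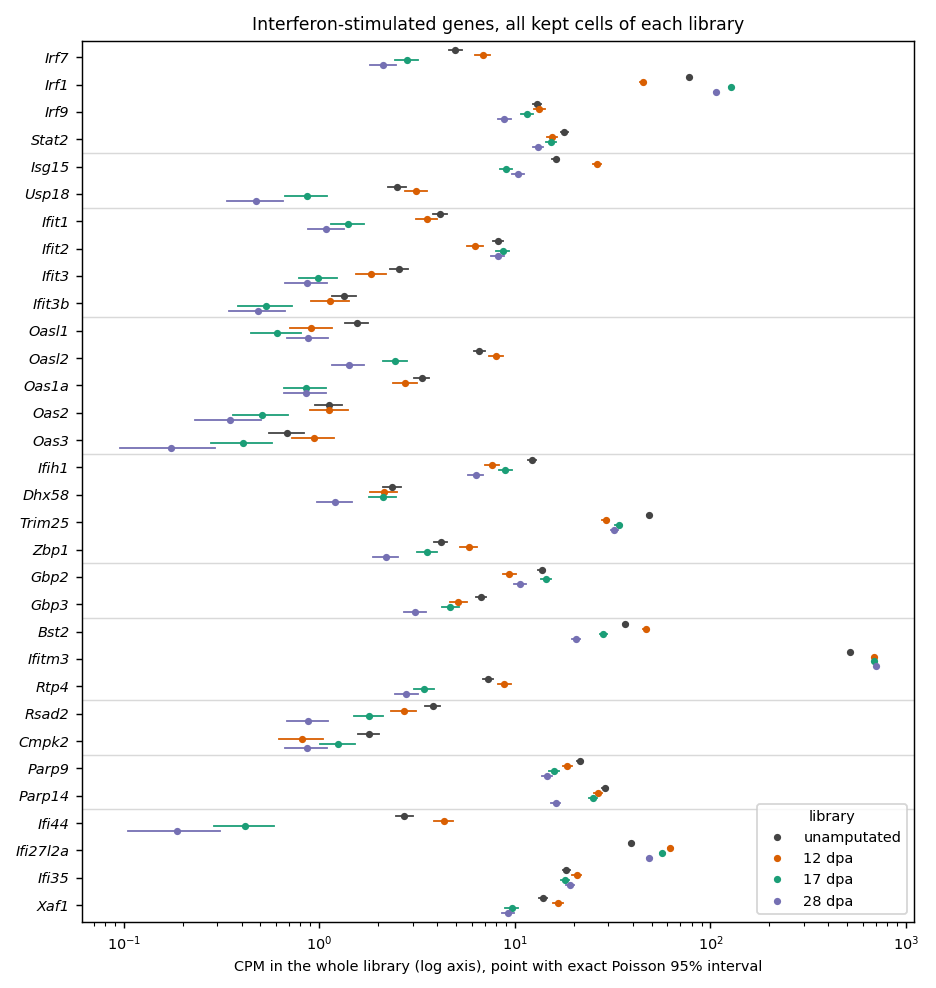
CPM of each of the 32 members with a row, summed over all kept cells of a library, on a log axis, with exact Poisson 95% intervals; members are grouped by role and colours mark the 4 libraries. The levels run from 0.175 CPM (Oas3 at 28 dpa) to 700 CPM (Ifitm3 at 28 dpa), and for Ifi44, Oasl2 and Usp18, among others, the 17 and 28 dpa points lie below the other libraries.

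Among the transcription factors of the signal, Irf7, the amplifier of the type I response, was at 4.96, 6.85, 2.80 and 2.11 CPM in the unamputated, 12, 17 and 28 dpa libraries. Irf9 and Stat2, which form the activating complex, moved less: Irf9 lay between 8.82 and 13.3 CPM and Stat2 between 13.1 and 17.9 CPM, both lowest at 28 dpa. Irf1, the factor also induced by interferon gamma and by cell stress, took another course, with 77.8, 44.9, 127 and 106 CPM. Its ratio to the unamputated library was 0.578 (95% interval 0.555 to 0.600) at 12 dpa and 1.63 (1.59 to 1.68) at 17 dpa. Fos, an immediate-early gene that tissue dissociation is known to induce, had the same order of libraries, with 707, 376, 1110 and 859 CPM. Junb, with 441, 358, 588 and 529 CPM, and Jun, with 392, 274, 563 and 437 CPM, had it too, while Jund was highest at 28 dpa, with 528, 423, 561 and 662 CPM. Over the 20 genes of the dissociation response list, the median log2 ratio was -0.71, 0.33 and 0.20 at 12, 17 and 28 dpa, with 2 called lower at 12 dpa, against 2.6% of all genes, and no other call. Their part in the Irf1 levels was not tested.

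Isg15, the ubiquitin-like protein of the family, was at 16.2, 26.3, 8.997 and 10.3 CPM. The 12 dpa level was 1.63 times the unamputated one (1.53 to 1.73). Usp18, which removes ISG15 from proteins and blocks the receptor, was at 2.497, 3.12, 0.863 and 0.475 CPM, and its 28 dpa ratio was 0.190 (0.132 to 0.266). Of the IFIT proteins, which bind viral RNA, Ifit1 was at 4.16, 3.55, 1.40 and 1.09 CPM. Ifit2 was the exception in the family, with 8.21, 6.25, 8.67 and 8.17 CPM, so that its 17 and 28 dpa intervals overlapped the unamputated one. Ifit3 was at 0.862 to 2.55 CPM and Ifit3b at 0.487 to 1.34 CPM, both highest in the unamputated library.

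Most OAS proteins make a messenger that activates RNase L, and most genes of the family were rare. Oasl2 was the most abundant, with 6.56, 7.98, 2.45 and 1.41 CPM, and Oas1a followed with 3.34, 2.74, 0.8502 and 0.8495 CPM. Oas2, Oas3 and Oasl1 stayed between 0.175 and 1.55 CPM. Of the sensing genes, Zbp1, which binds nucleic acids of unusual shape, was at 4.17, 5.79, 3.57 and 2.19 CPM. Ifih1, which encodes the RNA sensor MDA5, was highest in the unamputated library, with 12.2, 7.64, 8.95 and 6.32 CPM, as was Trim25, a ligase that assists RNA sensing, with 48.2, 29.1, 33.96 and 32.3 CPM. Dhx58, which encodes the sensor LGP2, was at 1.199 to 2.36 CPM.

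The membrane proteins split. Ifitm3, which blocks virus entry and is also present in resting vessel and connective tissue cells, was the most abundant member and was higher in each dpa library, with 519, 689, 685 and 700 CPM. Bst2, which tethers budding virus, was at 36.8, 46.6, 28.3 and 20.6 CPM, the order of the core. Rtp4 was at 7.29, 8.83, 3.44 and 2.79 CPM, and its 28 dpa ratio was 0.382 (0.329 to 0.442). Rsad2 (viperin) was at 3.79, 2.70, 1.79 and 0.875 CPM, while its genomic neighbour Cmpk2, a nucleotide kinase, was at 0.814 to 1.79 CPM. Of the guanylate-binding GTPases, which interferon gamma induces strongly, Gbp2 was at 13.7, 9.36, 14.5 and 10.6 CPM, highest at 17 dpa. Gbp3 was at 6.71, 5.14, 4.68 and 3.09 CPM.

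Ifi44 had the widest range of all members over the libraries, with 2.72, 4.34, 0.419 and 0.187 CPM. That is 388, 320, 33 and 15 UMIs, and a 28 dpa ratio of 0.0689 (0.0382 to 0.115). Xaf1, a pro-apoptotic binding partner of XIAP, was at 13.9, 16.6, 9.61 and 9.22 CPM. Ifi27l2a was higher in each dpa library, with 39.4, 62.4, 56.8 and 48.7 CPM, and Ifi35 stayed between 18.04 and 20.7 CPM. The ADP-ribosylating enzymes Parp9 and Parp14 were at 14.5 to 21.6 CPM and 16.2 to 28.9 CPM, both lowest at 28 dpa. In all, 15, 5 and 4 of the 32 members had a higher CPM than in the unamputated library at 12, 17 and 28 dpa, and 17, 27 and 28 had a lower one.

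Libraries differed in the shares of their cell classes, so the core was also summed within classes. Names stand for cells with the markers of a class, and clusters that no class fitted are given by number and leading genes. Of 14 sets of cells that could be compared at 12 dpa, 8 had a core level above the unamputated one without overlap of intervals and 4 had one below. At 17 dpa 2 of 17 were above and 11 below, and at 28 dpa 2 of 16 were above (clusters 8 and 18) and 9 below. Cluster 8 stood above at 28 dpa through 2 of its 571 cells, which held 144 of its 183 core UMIs. With the shares of 14 sets of cells held at their mean over the libraries, the ratio of the core sum to the unamputated library in the 12, 17 and 28 dpa libraries was 1.19 (1.15 to 1.24), 0.623 (0.598 to 0.649) and 0.642 (0.612 to 0.674). The observed ratios over the same sets were 1.15, 0.571 and 0.496, so directions were the same with and without held shares, and the 28 dpa ratio was nearer to 1 with them held. These 14 sets joined the neutrophil clusters 7 and 18, so the mix of those clusters was not held. Cluster 7 had 451, 3, 181 and 0 cells in the unamputated, 12, 17 and 28 dpa libraries. Directions depended on the list: with every member, Ifitm3 included, the observed ratio was 1.18 at 17 dpa and 1.11 at 28 dpa. With every member except Ifitm3, Bst2 and Ifi27l2a, it was 0.827 at 12 dpa, and the core without Isg15 gave 1.04 there.

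**Figure D2:**
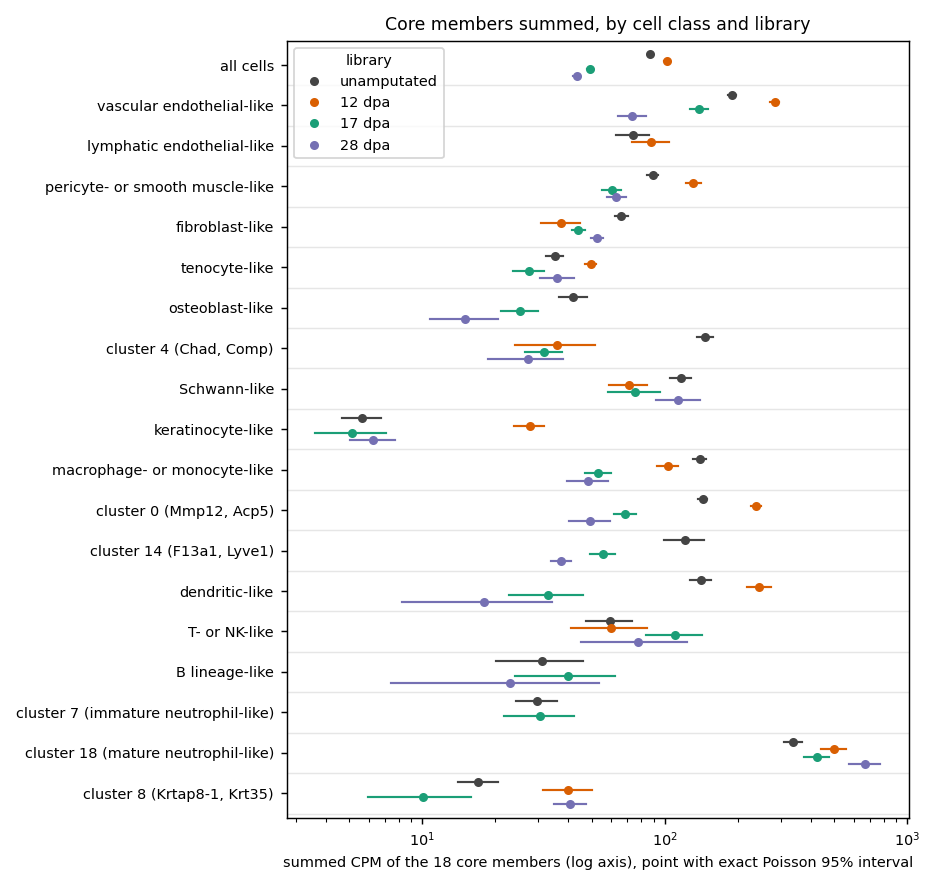
Summed CPM of the 18 core members in each cell class or cluster and library, on a log axis, with exact Poisson 95% intervals. In vascular endothelial-like cells, cluster 0 and dendritic-like cells the 12 dpa point lies highest and the 28 dpa point lowest, while in cluster 18 the 28 dpa point lies highest, at 671 CPM.

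Vascular endothelial-like cells (1366, 747, 521 and 585 cells) held the members at high levels. Their core sum was 190 CPM (183 to 196), 284 CPM (271 to 297), 139 CPM (127 to 151) and 73.6 CPM (64.3 to 83.8) in the unamputated, 12, 17 and 28 dpa libraries. The order of libraries was the same in the 2 main clusters of the class, cluster 6 (Gpihbp1, Kdr) with 248, 342, 201 and 93.9 CPM and cluster 5 (Selp, Ackr1) with 106, 131, 57.8 and 50.4 CPM. Of 24 members that passed the minimum, 9 were called lower and 1 higher at 28 dpa, against 2.8% and 1.81% of all genes. At 17 dpa 2 were called lower and none higher (0.562% and 1.03% of all genes), and at 12 dpa 1 was called higher and none lower (0.708% and 0.717%). With 5 CPM added to both levels, 4 calls were made over the 3 comparisons in place of 13, and none at a minimum of 20 CPM, so the called members are those at low levels.

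Ifi44 in vascular endothelial-like cells was at 17.5, 35.2, 7.29 and 0.981 CPM, from 299, 242, 28 and 3 UMIs. The 28 dpa level was 0.0560 times the unamputated one (0.0115 to 0.165). Oasl2 was at 14.3, 23.6, 5.99 and 3.60 CPM, with a 28 dpa ratio of 0.251 (0.123 to 0.456), and Rtp4 at 16.7, 20.97, 8.33 and 5.89 CPM. These 3 members, and Isg15, Bst2, Xaf1 and Parp9 below, had their 17 and 28 dpa levels below both other libraries. For Bst2 at 17 dpa the interval of the ratio to the unamputated library reached 1.02. Isg15 was at 31.9, 64.8, 24.7 and 18.6 CPM, which is a ratio of 2.03 (1.79 to 2.31) at 12 dpa. Bst2 was at 90.1, 133, 81.2 and 53.3 CPM and Xaf1 at 34.6, 52.6, 25.5 and 25.2 CPM. Ifitm3 went the other way at the late times, with 1218, 1648, 1614 and 1881 CPM, and Irf1 had its own order again, with 152, 103, 225 and 201 CPM. Parp9 stayed between 27.3 and 36.8 CPM and Gbp2 between 31.3 and 49.5 CPM. The summed endothelial markers were at 6289 to 6904 CPM in the 4 libraries. The fibroblast marker list, foreign to the class, was at 531, 1134, 1143 and 1278 CPM and the neutrophil list at 108, 3.49, 74.2 and 3.27 CPM, and their part in the member levels was not tested.

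The cells of cluster 0, with Mmp12, Acp5 and Atp6v0d2 among its leading genes (1132, 745, 522 and 292 cells), had a core sum of 143, 238, 68.6 and 49.0 CPM. They held macrophage markers at 12900 to 16415 CPM and osteoclast markers at 1732 to 4136 CPM, and were not named. Isg15 there was at 13.3, 42.1, 6.28 and 7.402 CPM, a ratio of 3.18 (2.62 to 3.86) at 12 dpa, where 5 cells held 91 of the 277 UMIs, and of 0.474 (0.314 to 0.693) at 17 dpa. Irf7 was at 14.4, 30.5, 6.86 and 6.94 CPM and Zbp1 at 18.4, 31.0, 17.8 and 6.94 CPM. Ifi27l2a was at 207, 396, 187 and 121 CPM, and Bst2 was at 59.6, 101, 51.0 and 41.6 CPM. Trim25 was highest in the unamputated library instead, with 103, 49.7, 81.0 and 76.3 CPM, and Irf1 was highest at 17 dpa, with 37.8, 33.7, 74.5 and 60.1 CPM. Ifih1 was at 11.1 to 20.6 CPM and Parp9 and Irf9 at 12.0 to 21.5 CPM, each lowest at 28 dpa. Of 22 members that passed the minimum, 2 were called higher and 2 lower at 12 dpa, against 0.590% and 3.01% of all genes. At 17 dpa 2 were higher and 3 lower (0.801% and 0.853%), and at 28 dpa 6 were lower and none higher (6.32% and 2.49%). These 15 calls fell to 5 with 5 CPM added to both levels and to 1 at a minimum of 20 CPM.

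Dendritic-like cells were few, with 255, 136, 125 and 76 cells, and their core sum was 141 CPM (128 to 155), 245 CPM (217.2 to 275), 33.0 CPM (22.8 to 46.1) and 18.01 CPM (8.23 to 34.2). Isg15 was at 13.4, 71.6, 0.970 and 6.002 CPM, from 40, 83, 1 and 3 UMIs, with a ratio of 5.36 (3.63 to 8.02) at 12 dpa, where 2 of the 136 cells held 43 of the 83 UMIs, and of 0.0726 (0.00179 to 0.428) at 17 dpa. Irf7, which dendritic cells use to make type I interferon, was at 10.7, 39.7 and 4.85 CPM in the unamputated, 12 and 17 dpa libraries, with no UMI at 28 dpa, which allows up to 6.002 CPM. Ifih1 was at 29.1, 24.1, 11.6 and 6.002 CPM, and Ifi27l2a at 167, 254, 68.9 and 90.03 CPM. Xaf1 was at 16.4, 21.6, 6.79 and 2.001 CPM, and Parp14 at 44.8, 45.7, 22.3 and 20.01 CPM. Parp9 was at 30.7, 20.7, 19.4 and 14.004 CPM and Irf9 at 31.1, 25.9, 28.1 and 18.01 CPM, while Irf1 was at 85.9, 49.2, 101 and 78.02 CPM, highest at 17 dpa. Ifitm3 in these cells was not higher at the late times, with 273, 437, 200 and 180 CPM. Of 21 members that passed the minimum, 9 were called lower at 17 dpa and 11 at 28 dpa, against 5.23% and 14.4% of all genes, and none higher (2.46% and 4.33%). At 12 dpa 2 were called higher and 1 lower (2% and 9.75%). With the 12 dpa library left out of the minimum, 15 member calls were made over the 3 comparisons in place of 23. The dendritic markers were at 1086, 715, 1245 and 682 CPM and macrophage markers at 2629, 1068, 3114 and 5124 CPM in these cells, and the part of these differences in the member levels was not tested.

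Macrophage- or monocyte-like cells (732, 425, 470 and 249 cells) differed from the preceding sets at 12 dpa, where their core sum was lower than in the unamputated library: 139 CPM (131 to 147), 103 CPM (93.2 to 113), 53.1 CPM (46.9 to 60.0) and 48.2 CPM (39.3 to 58.3). The difference between these cell sets was not tested. Ifih1 was at 20.5, 8.73, 13.99 and 7.87 CPM. Trim25 was at 155, 83.4, 92.2 and 126 CPM. Bst2 was at 58.0, 78.0, 50.7 and 31.0 CPM, highest at 12 dpa as in the endothelium. Parp14 was at 52.3, 42.9, 49.7 and 28.7 CPM, Parp9 at 24.9, 19.6, 20.3 and 16.2 CPM and Irf9 at 19.2, 18.4, 20.9 and 10.2 CPM, each lowest at 28 dpa. Other members stood above the unamputated level at the late times. Irf1 was at 50.3, 44.8, 80.5 and 63.9 CPM, a ratio of 1.60 (1.39 to 1.84) at 17 dpa and of 1.27 (1.04 to 1.54) at 28 dpa. Ifi27l2a was at 100.5, 133, 139 and 125 CPM, with ratios of 1.32, 1.39 and 1.24 at 12, 17 and 28 dpa. Ifitm3 was at 88.1, 87.3, 113 and 128 CPM. Ifi35, at 16.4, 19.1, 22.5 and 16.7 CPM, stood above at 17 dpa only. Its ratio was 1.37 (1.06 to 1.77) there and 1.02 (0.684 to 1.47) at 28 dpa. Of 21 members that passed the minimum, 1, 5 and 7 were called lower at 12, 17 and 28 dpa, against 1.5%, 0.768% and 3.24% of all genes, and none higher (1.06%, 3.66% and 5.37%). With a minimum mean of 20 CPM no member was called in this class.

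The connective tissue classes differed in order. Fibroblast-like cells (787, 248, 1830 and 2433 cells) had a core sum of 66.2, 37.4, 44.0 and 52.4 CPM, lowest at 12 dpa, although the class came most often from cluster 11 (C4b, Gdf10) in the unamputated and 17 dpa libraries and from cluster 29 (Pi16, Scara5) in the 12 and 28 dpa libraries. Cluster 11 had 82.9, 37.95, 42.3 and 70.8 CPM and cluster 29 had 49.7, 38.7, 37.9 and 45.1 CPM. Cluster 19 of the class (Hcn4, Foxd1) was not lower at the late times, with 56.5, 62.4 and 75.1 CPM in the unamputated, 17 and 28 dpa libraries and overlapping intervals. Irf1 in all fibroblast-like cells was at 145, 57.6, 223 and 164 CPM, with a 12 dpa ratio of 0.397 (0.339 to 0.463), and Ifitm3 was at 578, 628, 842 and 1067 CPM. Ifi27l2a was at 8.23, 27.8, 12.8 and 14.3 CPM. Of 15 members that passed, 1 was called higher and 2 lower at 12 dpa, against 0.646% and 4.56% of all genes, and at 17 and 28 dpa 1 was lower (1.04% and 5.89%) and none higher (0.415% and 1.79%). Tenocyte-like cells had their highest core sum at 12 dpa instead, with 35.2, 49.5, 27.5 and 36.0 CPM. The border between the 2 classes depended on the clustering. Col24a1 and Crabp1 were among the leading genes of the main tenocyte-like cluster, with 1722 cells at 12 dpa. At Leiden resolution 2 they led a cluster named fibroblast, with 331 of its 513 cells from 12 dpa. The part of this naming in the contrast was not tested. In tenocyte-like cells at 12 dpa, 9 of 1858 cells held 184 of the 395 Isg15 UMIs.

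The cells of cluster 4, led by Chad, Comp and Igf2, had their highest core sum in the unamputated library, where 240 cells gave 146 CPM (135 to 158). The sums at 12, 17 and 28 dpa were 36.0, 31.7 and 27.1 CPM, from 56, 397 and 186 cells. Isg15 was at 34.9, 7.44, 3.21 and 4.94 CPM and Bst2 at 50.5, 21.1, 9.40 and 13.2 CPM, and Parp9 at 24.8, 8.68, 8.90 and 7.404 CPM. Stat2 and Trim25 were highest in the unamputated library as well, at 24.997 and 26.8 CPM against 8.68 to 12.3 CPM and 9.92 to 11.5 CPM. Ifitm3 was higher at 17 and 28 dpa, with 435, 508, 1014 and 1013 CPM, and Irf1 was at 110, 36.0, 97.2 and 206 CPM. Of 16 members that passed, 10, 7 and 6 were called lower, against 8.02%, 2.08% and 5.68% of all genes, and 0, 1 and 1 higher (2.32%, 1.61% and 3.87%). These calls, 25 in all, numbered 6 at a minimum of 20 CPM, and a member high in the unamputated library alone could pass the minimum through it. Chondrocyte or joint lining markers were at 1507, 1581, 2023 and 5218 CPM in the cluster, and the part of this difference in the member levels was not tested.

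**Figure D3:**
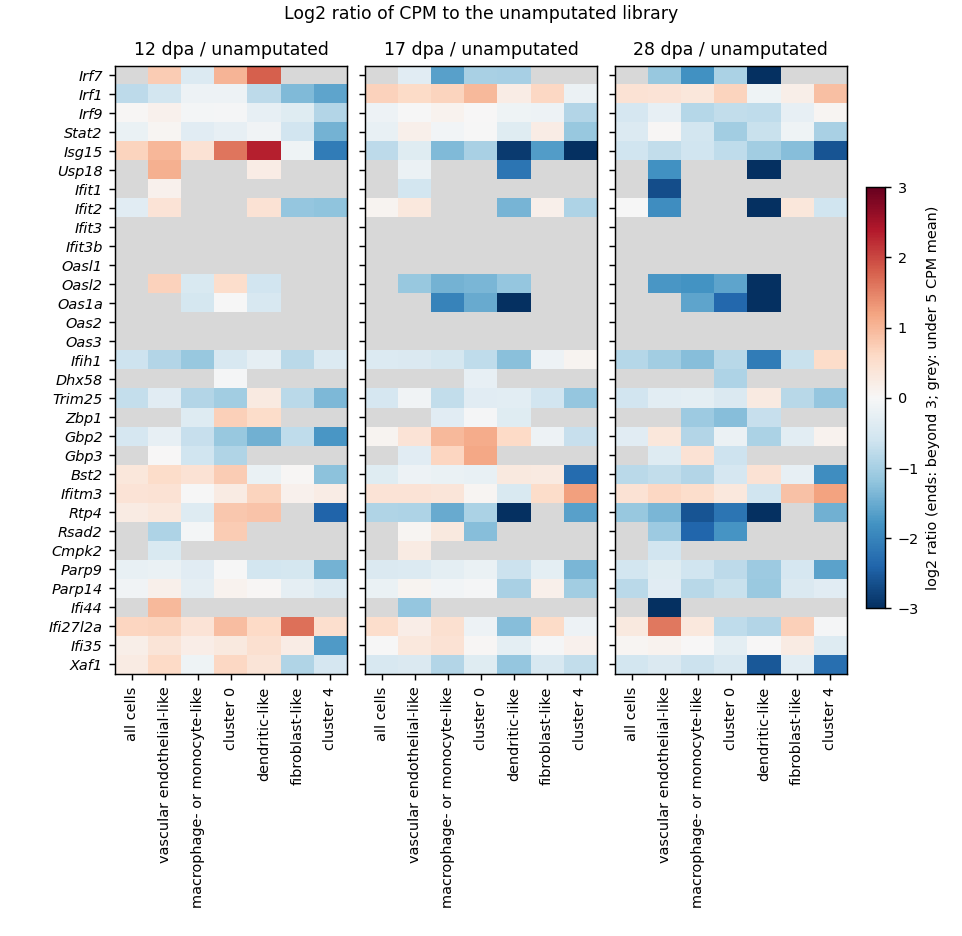
Log2 ratio of CPM to the unamputated library (1 CPM added to both) for each member, in all cells and 6 sets of cells, at 12, 17 and 28 dpa; grey marks members under a mean of 5 CPM, and colours end at 3 either way. Ifitm3 is above 0 in vascular endothelial-like cells in each panel while Oasl2 there is above 0 at 12 dpa and below 0 at 17 and 28 dpa.

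Pericyte- or smooth muscle-like cells, which wrap the vessels, had the order of the endothelium up to 17 dpa, with a core sum of 89.1, 131, 60.5 and 63.2 CPM. Its 2 main clusters differed. Cluster 12 (Rgs5, Kcnj8) had 118, 168, 75.9 and 68.5 CPM, while cluster 10 (Myh11, Tagln) had 39.6 CPM (34.4 to 45.4), 47.5 CPM (35.4 to 62.5), 39.8 CPM (32.8 to 47.8) and 56.5 CPM (48.3 to 65.7), so that its 28 dpa level was above the unamputated one without overlap. Isg15 in the whole pericyte- or smooth muscle-like class was at 23.6, 54.9, 19.0 and 24.5 CPM, a ratio of 2.33 at 12 dpa, where 6 cells held 125 of the 306 UMIs, and of 1.04 at 28 dpa. Schwann-like cells had core sums of 117, 71.0, 75.3 and 114 CPM, with the 28 dpa interval overlapping the unamputated one. T or NK-like cells, with 82 to 280 cells per library, had 59.2, 59.9, 111 and 77.2 CPM, highest at 17 dpa. That level rested in part on 1 cell: at 4000 UMIs per cell, the 17 dpa level was 103 CPM with it and 65.0 CPM without it, against 69.6 CPM in the unamputated library and 65.7 CPM there without the 1 such cell.

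Keratinocyte-like cells were the lowest, with a core sum of 5.64 CPM (4.66 to 6.75) in the unamputated library, 27.7 CPM (23.9 to 31.9) at 12 dpa, 5.12 CPM (3.61 to 7.06) at 17 dpa and 6.26 CPM (5.01 to 7.74) at 28 dpa. At 12 dpa 24 of the 32 members had a higher CPM than in the unamputated library and 5 a lower one, but the levels were small. How many of all genes had a higher CPM was not counted. Only 8 members passed the minimum, and none was called at 12 dpa, against 0.778% of all genes higher and 1.46% lower. The median log2 ratio of these 8 was 0.39, against -0.16 over all genes that passed. Isg15 was at 1.45, 9.42, 1.25 and 2.26 CPM, and 1 cell held 23 of the 66 Isg15 UMIs at 12 dpa.

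The core UMIs were unevenly spread over cells. To compare cells at 1 depth, each was thinned at random to 1000 UMIs. A cell with at least 3 different core members was then found for 53 of 10420 cells in the unamputated library (0.509%, exact interval 0.381 to 0.665%), 46 of 6453 at 12 dpa (0.713%, 0.522 to 0.9497%), 4 of 7962 at 17 dpa (0.0502%, 0.0137 to 0.129%) and 4 of 10252 at 28 dpa (0.0390%, 0.0106 to 0.0999%). Without thinning the shares were 6.603%, 7.35%, 1.90% and 0.810%. The unamputated and 12 dpa intervals overlapped each other and neither overlapped those of 17 and 28 dpa. Exactly 2 core members were seen in 87, 81, 27 and 19 cells and exactly 3 in 34, 28, 2 and 2 cells, so how many cells pass depends on where the line is drawn. These cells came from several classes: of the 53 unamputated cells, 17 were vascular endothelial-like, 11 macrophage- or monocyte-like, 9 in cluster 0 and 7 pericyte- or smooth muscle-like. Of the 46 cells at 12 dpa, 17 were in cluster 0, 15 vascular endothelial-like and 5 dendritic-like. Isg15 was in 27 of the 53 and 28 of the 46, Oasl2 in 18 and 21, Ifit1 in 19 and 8, and Irf7 in 12 and 19.

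At 4000 UMIs per cell, which leaves out 1240, 942, 1338 and 2429 shallower cells, the share was 2.53% (2.22 to 2.87%), 3.41% (2.95 to 3.93%), 0.483% (0.331 to 0.681%) and 0.320% (0.207 to 0.471%). Those 232, 188, 32 and 25 cells held 42.2%, 50.02%, 15.3% and 12.8% of the core UMIs. In the other cells the core level was 57.9 CPM (55.5 to 60.5), 62.6 CPM (59.2 to 66.0), 43.6 CPM (41.1 to 46.2) and 36.1 CPM (34.1 to 38.3), against 97.7, 121, 51.3 and 41.3 CPM over all cells of that depth. Because such cells were picked by their own core members, the level left in the other cells had to be lower, and this split is a description only.

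The split differed between classes. In vascular endothelial-like cells 4.93% (3.82 to 6.25%), 10.1% (7.87 to 12.7%), 1.79% (0.722 to 3.65%) and 0.621% (0.0753 to 2.23%) of cells carried at least 3 core members at 4000 UMIs, and the level in the other cells was 86.9, 117, 80.7 and 66.4 CPM. In cluster 0 the shares were 5.34%, 10.1%, 2.16% and 0.459%, and the other cells were at 88.3, 98.8, 51.9 and 36.9 CPM. A single cell of cluster 0 at 28 dpa held 25 of the 57 core UMIs counted at that depth. In macrophage- or monocyte-like cells the share was 4.97%, 1.97%, 0.677% and 0.893%, and the other cells were at 66.9, 77.9, 33.5 and 34.9 CPM, with overlapping intervals for the unamputated and 12 dpa libraries. In dendritic-like cells 10 of 245 and 7 of 128 cells passed in the unamputated and 12 dpa libraries (4.08% and 5.47%) and none of 118 and 66 cells at 17 and 28 dpa, which allows up to 2.54% and 4.55% (3 counts of the total). The other dendritic-like cells were at 80.9, 105, 29.7 and 18.9 CPM. In Schwann-like cells, with 1 to 4 such cells per library, the other cells were at 105, 65.6, 87.8 and 78.0 CPM. In cluster 4 the share was 5.06% in the unamputated library. None of 56, 373 and 161 cells of the 12, 17 and 28 dpa libraries passed, which allows up to 5.36%, 0.804% and 1.86%. The 12 dpa share may thus be as high as the unamputated one. In the other cells of cluster 4 the level was lower in the dpa libraries as well, at 104 CPM against 35.7, 34.2 and 26.4 CPM. In keratinocyte-like cells, which had few core UMIs and a median depth of 10195 to 18691 UMIs, 1 of 988 and 3 of 427 cells of the unamputated and 12 dpa libraries passed (0.101% and 0.703%), and none of 477 and 1176 cells at 17 and 28 dpa, which allows up to 0.629% and 0.255%.

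**Figure D4:**
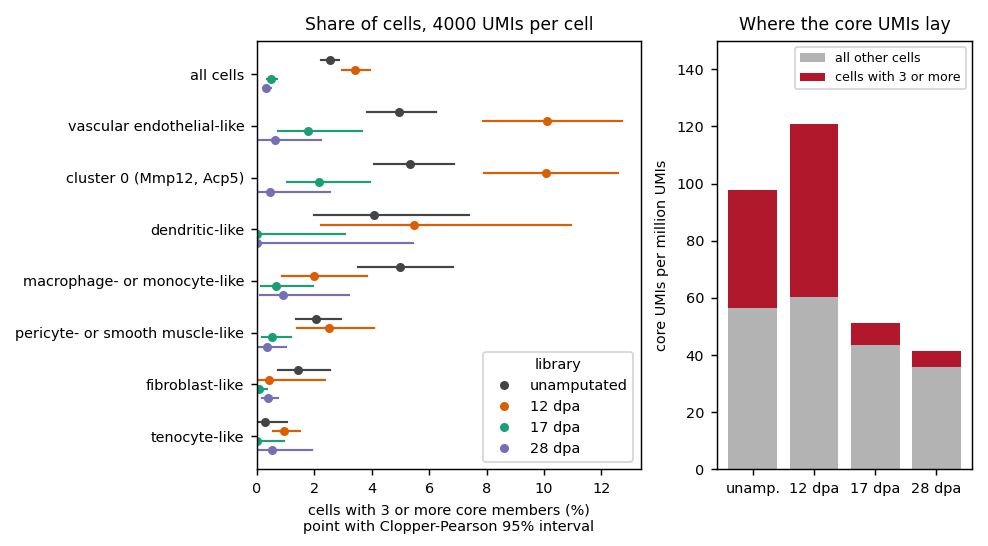
Left, share of cells with at least 3 core members after thinning to 4000 UMIs per cell, with exact 95% intervals, by cell set and library; right, core CPM at that depth, split into those of such cells and of all other cells. The cells with 3 or more core members hold 50.02% of the core UMIs at 12 dpa and 12.8% at 28 dpa.

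The 2 neutrophil clusters differed. The mature cluster 18 (Il1b, Cxcl2, Csf3r, in 610, 282, 284 and 184 cells) had the highest core sum per UMI of the sets compared, with 337, 497, 424 and 671 CPM, but these cells were shallow, and per 100 cells they held 89.8, 94.3, 98.2 and 100 core UMIs. That is a narrow range, and vascular endothelial-like cells held 237 and 261 per 100 cells in the unamputated and 12 dpa libraries. Isg15 made up 82.8%, 76.7%, 86.0% and 89.7% of its core UMIs. Isg15 was at 279, 381, 365 and 602 CPM, with a 28 dpa ratio of CPM of 2.15 (1.79 to 2.58). Isg15 was also above its unamputated level at 28 dpa in tenocyte-like cells (ratio 1.959, 1.24 to 3.04) and Schwann-like cells (1.81, 1.13 to 2.82), and in cluster 8, where 2 cells held 144 of the 160 Isg15 UMIs. At 1000 UMIs per cell, 15.9%, 23.05%, 19.7% and 32.6% of the cells of cluster 18 had an Isg15 UMI. In the immature neutrophil cluster 7 (Camp, Ngp, Ltf), with 451 unamputated cells and 181 cells at 17 dpa, Isg15 was at 3.85 and 4.85 CPM, from 14 and 6 UMIs, and no cell had an Isg15 UMI after thinning. The median depth was 1423 to 2390 UMIs in cluster 18 and 7085 and 5497 UMIs in cluster 7. The neutrophil name of cluster 18 rested on 1 marker among its 10 leading genes. At Leiden resolution 2, a cluster of 1404 cells likewise led by Ccrl2, Acod1 and Il1b had no marker among its 10 leading genes and was left unnamed. Ifitm3 in cluster 18 was at 134, 295, 249 and 248 CPM. Rsad2 was at 19.7, 44.8, 6.08 and 25.5 CPM, from 4 to 32 UMIs, and Trim25 at 85.5, 80.3, 179 and 29.2 CPM. Parp14 was at 18.4, 24.3, 22.8 and 3.65 CPM and Oasl2 at 11.1, 29.9, 18.2 and 3.65 CPM, each with 1 UMI at 28 dpa. Irf1 was highest at 12 dpa here, with 102, 144, 125 and 76.6 CPM, and Ifi27l2a was at 28.3, 26.2, 45.6 and 29.2 CPM. Of 17 members that passed, 6, 4 and 3 were called higher, against 9.33%, 5.4% and 12.1% of all genes, and 0, 2 and 3 lower (11.9%, 7.75% and 12.7%). Fibroblast markers in the cluster were at 862, 3015, 1399 and 2501 CPM, and their part in the member levels was not tested.

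**Figure D5:**
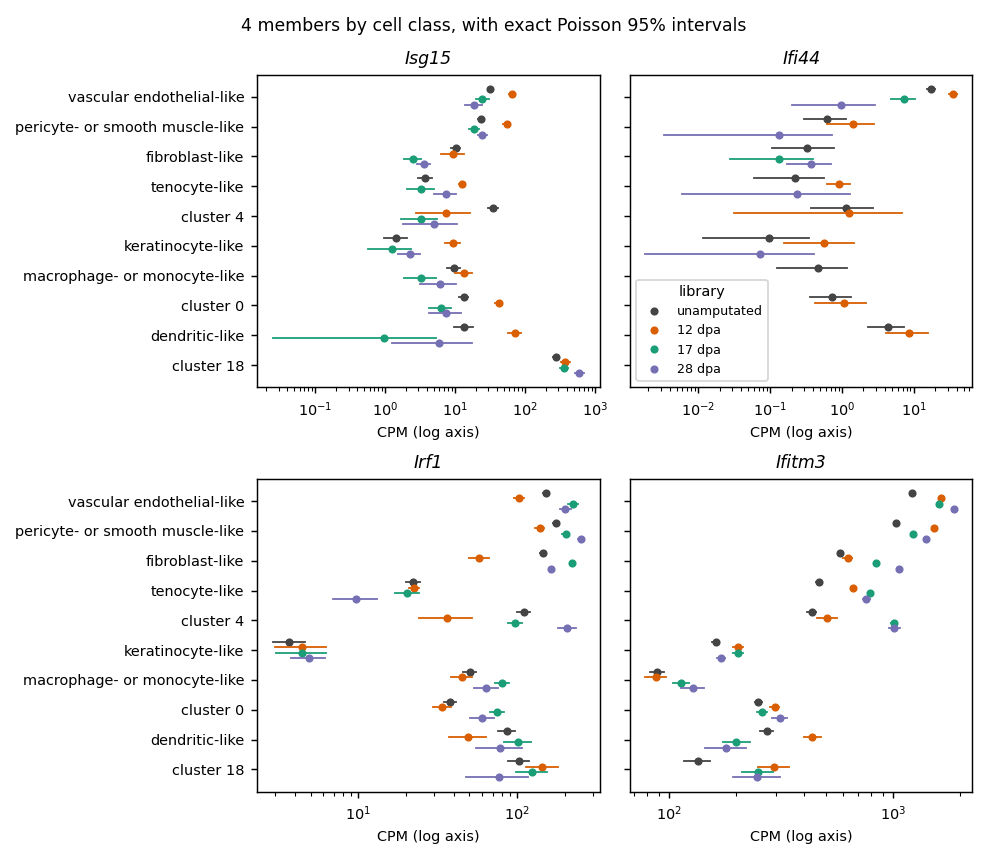
CPM of Isg15, Ifi44, Irf1 and Ifitm3 by cell set and library, on log axes, with exact Poisson 95% intervals; sets with no UMI have no point. Ifi44 reaches 35.2 CPM in vascular endothelial-like cells at 12 dpa, and Isg15 lies above 270 CPM in each library of cluster 18.

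Interferon messages themselves were scarce, as is known for these short-lived transcripts. Of 11 interferon genes with a row, no UMI was found for Ifna1, Ifna2, Ifna4, Ifna5, Ifnl2 and Ifnl3. Ifnb1 had 15, 0, 10 and 0 UMIs, and Ifng, the product of T and NK cells, had 112, 10, 208 and 41 UMIs. Ifnk, the keratinocyte interferon, had 114, 40, 70 and 54 UMIs. Of 10 receptor and JAK-STAT genes and 12 sensor and adaptor genes that passed the minimum in the whole libraries, none was called in any comparison, and neither were 6 negative regulators and 15 genes of MHC class I and antigen processing. With 0.683% to 5.71% of all genes called per direction and comparison, lists this small would hold few calls or none at the rate of all genes, and nothing is read from their absence. Ifnar2, a subunit of the type I receptor, lay between 97.4 and 103 CPM in the 4 libraries. Of 27 other interferon-induced genes that passed, 1 was called lower at 12 dpa (Ccl5), against 2.6% of all genes, none at 17 dpa, and at 28 dpa 6 were called lower (Ifi203, Iigp1, Herc6, Sp100, Slfn5 and Cd274) and 1 higher (Ifi205), against 5.71% and 1.69% of all genes. In vascular endothelial-like cells none of the 31 that passed was called in any comparison, against 0.562% to 2.8% of all genes per direction and comparison. In dendritic-like cells at 28 dpa 15 of 32 were called lower and 1 higher, against 14.4% and 4.33% of all genes.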

How the data were processed

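Each of the 4 libraries was made with 10x 3′ v3 chemistry, per the labels' protocols. The deposited values were UMI counts per gene and cell barcode, made by the authors with Cell Ranger 7.1.0 and mm10, per the submitters' processing notes; intron and cell-calling settings are not given in the sources used here. The members and lists were chosen with earlier results of these data known. Barcodes under 500 genes or 1000 UMIs, or above 10% mitochondrial UMIs, were left out. Scrublet scores, computed per library, removed the top 0.8% per 1000 barcodes as doublets. Cells were clustered in scanpy 1.11.5 (2000 variable genes, 30 components, 15 neighbours, Leiden resolution 1) without the members, the pathway lists, Xist, Tsix, Y-linked and mitochondrial genes. Clusters were named from fixed markers, each needing at least 3 detected.

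UMIs were summed per library and set of at least 50 cells and given as CPM with exact Poisson 95% intervals; shares have Clopper-Pearson intervals, what a count of 0 allows is 3 counts of the total, and ratios have intervals from the Clopper-Pearson bounds of a share of UMIs. A call was a ratio of at least 2 either way with 1 CPM added, at a mean of at least 5 CPM, over all genes. Thinning drew a fixed number of UMIs per cell without replacement. Ratios and thinning were checked on simulated counts. In the whole libraries every member at or above 5 CPM is described; within a class, members at or above 20 CPM in a library are named, up to 10 by absolute log2 ratio. Values for lower members of the core, for Isg15 in tenocyte-, pericyte-, Schwann- and keratinocyte-like cells and clusters 7 and 8, for clusters 10, 11, 12, 19 and 29, and for called genes of the other lists were chosen after they were seen. With 1 library per group there is no replicate test.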

Additional observations from a re-analysis of the deposited data

Results flagged for a closer look

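The summed core members differed in direction between sets of cells under the same comparison, with intervals that did not overlap; these differences were not tested. At 12 dpa the ratio to the unamputated library was 1.41 in tenocyte-like, 1.498 in vascular endothelial-like, 1.47 in pericyte- or smooth muscle-like, 4.91 in keratinocyte-like and 1.74 in dendritic-like cells, 1.66 in cluster 0, 2.35 in cluster 8 and 1.47 in cluster 18. It was 0.565 in fibroblast-like, 0.609 in Schwann-like and 0.739 in macrophage- or monocyte-like cells and 0.246 in cluster 4.

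At 17 dpa the ratio was 1.87 in T or NK-like cells and 1.26 in cluster 18. It was 0.665 in fibroblast-like, 0.783 in tenocyte-like, 0.604 in osteoblast-like, 0.732 in vascular endothelial-like, 0.679 in pericyte- or smooth muscle-like, 0.646 in Schwann-like, 0.382 in macrophage- or monocyte-like and 0.234 in dendritic-like cells, 0.479 in cluster 0, 0.216 in cluster 4 and 0.460 in cluster 14. At 28 dpa it was 1.99 in cluster 18 and 2.39 in cluster 8, where 2 cells held 144 of the 183 core UMIs. It was 0.791 in fibroblast-like, 0.360 in osteoblast-like, 0.388 in vascular endothelial-like, 0.709 in pericyte- or smooth muscle-like, 0.346 in macrophage- or monocyte-like and 0.128 in dendritic-like cells, 0.343 in cluster 0, 0.186 in cluster 4 and 0.308 in cluster 14, a cluster led by F13a1 and Lyve1. Within the pericyte- or smooth muscle-like class, cluster 10 went the other way at 28 dpa, with a core sum of 56.5 CPM against 39.6 CPM in the unamputated library.

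Some of these sums rested on few cells. In T or NK-like cells at 17 dpa, 1 cell held 8 of the 21 core UMIs counted at 4000 UMIs per cell. Xist, a gene outside the member set, was at 456 CPM in the 12 dpa library alone, against the label of pooled male and female animals.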

How the results depend on the processing

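No paired analysis was possible because each group had 1 library. Of the values that answer a comparison, 82 were kept under an alternative, 73 moved and 6 changed direction, and those that moved or changed direction are given below. Among the log2 ratios of named members and class shares, 2341 stayed within their interval under an alternative, 310 moved beyond it, and no called value among them changed sign. The minimums of 1 and 20 CPM and the minimum without the 12 dpa library choose which genes are judged and cannot change a log2 ratio. Under each, 201 log2 ratios were kept by construction, and nothing is read from those. The cause of the moves below was not tested, other than where a setting tests fewer or more genes.

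Member calls over the 3 comparisons, 1 in the whole libraries, numbered 0 with 5 CPM added, at a minimum of 20 CPM, with centring on the median of all genes and with all barcodes, 3 without the 50 most abundant genes in the denominator and with a mean per cell, 4 with the stricter cell filter and 11 at a minimum of 1 CPM. With 5 CPM added, calls numbered 3 in fibroblast-like (5 in the report), 8 in macrophage- or monocyte-like (13) and 4 in vascular endothelial-like cells (13) and 5 in cluster 0 (15). At a minimum of 1 CPM they numbered 11 and 29 in the first of these classes, 41 in dendritic-like cells (23), and 27, 45 and 37 in clusters 0, 4 (25) and 18 (18). At a minimum of 20 CPM they numbered 1 in fibroblast-like cells, 0 in macrophage- or monocyte-like and vascular endothelial-like cells, 6 in dendritic-like cells, and 1, 6 and 6 in clusters 0, 4 and 18. A mean per cell gave 9 in fibroblast-like cells, and Leiden resolution 2 gave 8 there and 20 in macrophage- or monocyte-like cells. With the minimum taken without the 12 dpa library, chosen after seeing the data, calls numbered 0 in the whole libraries and 15 in dendritic-like cells. The stricter filter left too few cells in cluster 18 and for 1 of the 3 comparisons in cluster 4.

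The shares of cells with several core members, in the order unamputated, 12, 17 and 28 dpa, were 1.10%, 1.71%, 0.184% and 0.124% at 2000 UMIs, 6.603%, 7.35%, 1.90% and 0.810% without thinning, 1.34%, 1.97%, 0.389% and 0.224% for at least 2 core members, and 4.60%, 5.38%, 3.54% and 2.93% for any 3 members. They were 0.182% and 0.279% in the first 2 libraries for at least 4. Chosen after seeing the data, 4000 UMIs gave 2.53%, 3.41%, 0.483% and 0.320%, and leaving out Isg15 gave 0.269%, 0.511%, 0.0502% and 0.0585%. The 28 dpa count was then 6 cells, against 4 with Isg15, because each setting drew its own UMIs. Counts this small thus depend on the random draw.

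Summed ratios changed direction with the list. For all members they were 1.18 observed and 1.17 with held shares at 17 dpa, and 1.11 and 1.18 at 28 dpa. Without Ifitm3, Bst2 and Ifi27l2a they were 0.827 and 0.886 at 12 dpa, 0.948 and 0.9304 at 17 dpa, and 0.775 and 0.844 at 28 dpa. For the core, the stricter filter gave 1.02 and 1.08 at 12 dpa, 0.486 and 0.554 at 17 dpa, and 0.435 and 0.523 at 28 dpa. With doublets kept the observed ratios were 1.203, 0.599 and 0.516. At 12 dpa the held-share ratio was 1.33 at resolution 2 and 1.37 with the class shares of the unamputated library. Without Isg15, chosen after seeing the data, the ratios were 1.04 and 1.04 at 12 dpa and 0.460 and 0.524 at 28 dpa.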

Other observations

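A cluster with hair keratins among its leading genes (cluster 8: Krtap8-1, Krt35, Krt25) held 2 cells with many Isg15 UMIs and no other core member. At 28 dpa it held 160 Isg15 UMIs, and 144 of them lay in those 2 of its 571 cells, with 123 of 17699 and 21 of 1420 UMIs. Neither cell had a UMI of another core member, nor of the neutrophil genes S100a8 and Csf3r. Both carried, in genes picked after these cells were seen, Krt75, a keratin of the companion layer of the hair follicle, with 126 and 11 UMIs, and Krt17, with 695 and 86 UMIs. Most cells with Krt75 had no Isg15: of 24 cells with at least 5 Krt75 UMIs at 28 dpa, these 2 included, 5 had Isg15, and none of 12, 2 and 3 such cells in the unamputated, 12 and 17 dpa libraries did. In the unamputated and 12 dpa libraries, 21 of 111 and 10 of 75 core UMIs of the cluster were Isg15, so other core members made up most of them there.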
